A study of Mus musculus with 4 samples.

Results

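This account covers 10 genes of MHC class I antigen presentation in the epithelial tissue of mouse small intestine: the regulator Nlrc5, the light chain B2m, the heavy chains H2-K1 and H2-D1, the peptide transporter genes Tap1 and Tap2, tapasin (Tapbp), and the inducible proteasome subunits Psmb8, Psmb9 and Psmb10. They were chosen by name, as all non-control probes of the array whose gene name is one of these. That gave 17 probes for the 10 genes, of 56605 probes and 37325 gene names on the array. All 10 genes had at least 1 probe well above background on every array.

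The 4 samples were the scraped epithelia of jejunum and of ileum from 2 genotypes of mice, Tcrbd-/- DAOwt/wt (here wild-type) and Tcrbd-/- DAOG181R/G181R (here G181R). Every mouse, the wild-type ones included, was on the C57BL/6J background, was 9 weeks old, and was Tcrbd-/-, that is, without the beta and delta chains of the T cell receptor, so that none had T cells with a receptor. DAO is D-amino acid oxidase, and the G181R form is known as one with little enzyme activity. Each group was a mixture of RNA from 5 mice on 1 one-colour (Cy3) Agilent array, all 4 arrays being on 1 slide, so there was no replicate, no test and no p-value for any difference. Such pools also hide how far single mice differed.

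MHC class I molecules show short peptides from inside the cell to CD8 T cells and natural killer cells. The proteasome cuts the peptides, TAP1 and TAP2 pump them into the endoplasmic reticulum, tapasin holds the transporter beside the empty class I molecule, and the loaded complex of heavy chain and beta-2 microglobulin moves to the cell surface. Interferon gamma is known to induce most of these genes, partly through NLRC5, a class I transactivator that acts with RFX, CREB or ATF and NF-Y proteins on the conserved W/S, X and Y boxes of class I promoters. Intestinal epithelial cells carry class I at steady state, and intraepithelial lymphocytes lie next to them.

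The probes set what each value means, so probes of the 4 genes that were most different in ileum are shown first, 5′ to 3′ as the files give them, with positions in mm9. A probe that could not be read through in any frame without a stop codon is shown by its first 30 bases. The brighter Nlrc5 probe lies at chr8:97051105-97051164 and the other, whose 60 bases span 147 bases of genome, at chr8:97030478-97030624, 20.5 kb away. Of Tap1 the second probe is shown, at chr17:34330854-34330913. The brighter one, which gives the Tap1 values below, lies at chr17:34334022-34334081, and the probes of Psmb8 and Psmb9 at chr17:34337771-34337830 and chr17:34319174-34319233.
Nlrc5, brighter probe, first 30 bases: taaactcacaacactccatatcaaatgatc
Nlrc5, other probe: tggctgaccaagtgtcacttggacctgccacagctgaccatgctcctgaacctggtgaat
Tap1, other probe: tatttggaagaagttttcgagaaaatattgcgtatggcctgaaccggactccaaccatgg
Psmb8: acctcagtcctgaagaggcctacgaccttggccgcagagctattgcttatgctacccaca
Psmb9, brighter probe: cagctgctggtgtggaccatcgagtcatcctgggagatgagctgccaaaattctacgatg

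Promoter windows from RefSeq (GRCm38.p6), the 250 bases before the start, were found for 8 of the 10 genes. They were searched on both strands for 4 short motifs: AANNGAAA (an interferon regulatory factor core), TTCNNNGAA (a STAT site), TGACG (the core of the X2 box, also a CRE part) and CCAAT (the Y box). These occur in 21.3%, 7.02%, 17.8% and 33.8% of all 32851 windows of this length, so a single match says little about a gene. B2m, H2-K1 and H2-D1 held 3 of the motifs in the same order: an interferon core (on the plus strand of the gene in B2m, and reversed in H2-K1 and H2-D1), then TGACG, then the reverse of CCAAT, written ATTGG. The stretches below run from the interferon core to ATTGG, with the 3 motifs in capitals. They lie at chr2:122147550-122147638 on the plus strand, chr17:34000359-34000437 on the minus strand and chr17:35262944-35263022 on the plus strand.
B2m: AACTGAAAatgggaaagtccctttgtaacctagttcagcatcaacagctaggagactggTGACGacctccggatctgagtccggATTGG
H2-K1: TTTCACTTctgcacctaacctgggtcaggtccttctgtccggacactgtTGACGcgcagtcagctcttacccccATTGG
H2-D1: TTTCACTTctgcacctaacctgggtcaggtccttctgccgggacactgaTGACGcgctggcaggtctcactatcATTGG

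The stretch measured 89 bases in B2m and 79 bases in both heavy chain genes. TGACG and ATTGG were 20 bases apart in all 3 genes, a spacing that was looked at after the sequences were seen. Over all windows, 125 (0.381%) held TGACG and ATTGG in this orientation 15 to 25 bases apart, and 30 (0.0913%) held them exactly 20 bases apart. Tap1 and Psmb9 start back to back, and the 225 bases between their starts, chr17:34187331-34187555, are upstream sequence of both. Read in the direction of Tap1, that stretch holds CCAAT near the Psmb9 start and TGACG nearer to Tap1, in capitals:
Psmb9 to Tap1: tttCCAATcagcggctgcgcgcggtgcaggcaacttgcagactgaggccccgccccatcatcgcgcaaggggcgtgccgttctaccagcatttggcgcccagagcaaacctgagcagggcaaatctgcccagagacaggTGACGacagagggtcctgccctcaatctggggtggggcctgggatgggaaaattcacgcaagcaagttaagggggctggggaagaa

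Psmb8 held TTCCCAGAA, a match to the STAT motif, 97 to 89 bases before its start. Tapbp held only CCAAT matches, and Psmb10 held none of the 4 motifs. A match is a description of letters, and neither a match nor its lack shows what binds there.

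Values below are the scanner's processed signals, in the order wild-type jejunum, G181R jejunum, wild-type ileum, G181R ileum. Differences are log2, taken after each array's 75th percentile had been subtracted, so that 1 is 2-fold. The brightest probe stands for its gene. Between 57.4% and 60.4% of probes were well above background on an array and 0 were saturated. The only error at hand was that between replicate spots of 1 hybridisation: the median SD of a log2 difference was 0.0394 and 0.0429 for the genotype comparisons in jejunum and ileum, and 0.0395 and 0.0437 for the tissue comparisons in wild-type and G181R mice. It holds nothing of the spread between mice. The dissections matched their names: the summed level of 5 jejunal markers, as multiples of the 75th percentile, was 1347, 1128, 151.4 and 83.3, and that of 6 ileal markers was 194.9, 191.8, 1715 and 1482. The summed level of 7 epithelial markers was alike, between 1367 and 1461 on the same scale.

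In jejunum the class I genes were nearly alike in the 2 genotypes, apart from Nlrc5 (-0.60), whereas in ileum a subset was higher in G181R mice: Nlrc5 most, then Tap1, Psmb9 and Psmb8. The heavy chain H2-K1, its light chain B2m and tapasin were nearly alike there, with differences between -0.14 and -0.04. All 10 genes were lower in wild-type ileum than in wild-type jejunum, as 53.4% of all measured genes were. Over the 10 genes, the median genotype difference was -0.11 in jejunum, where that of all 21354 genes measured was -0.01, and 0.32 in ileum, where that of all 21608 genes was 0.03.

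**Figure D1:**
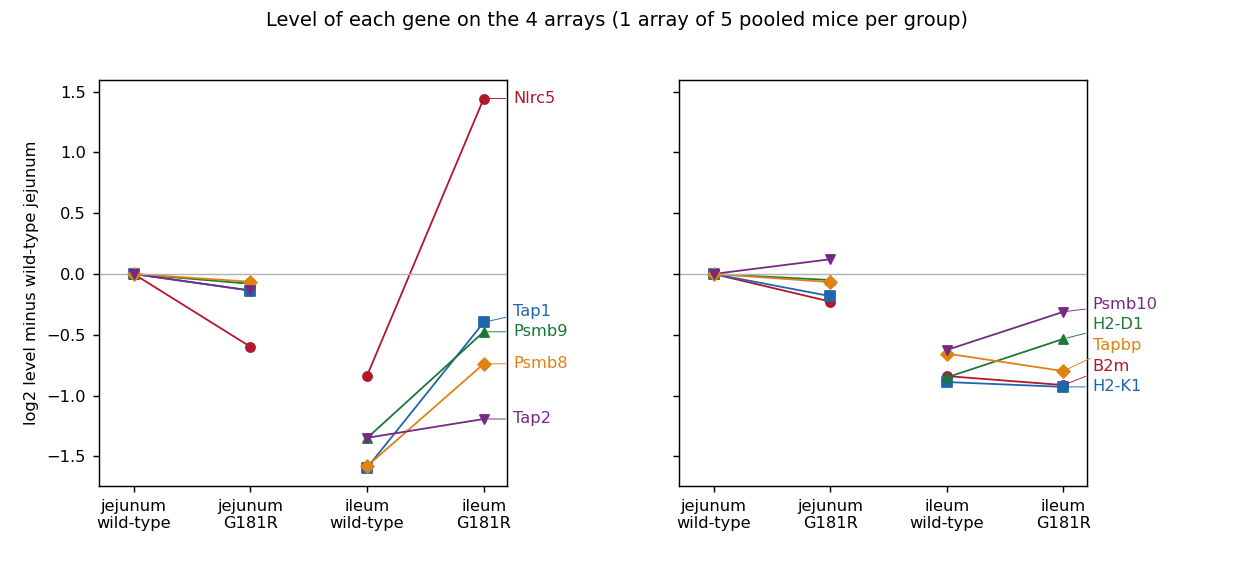
Level of each of the 10 genes on the 4 arrays, as the log2 level minus that of wild-type jejunum (y axis, 0 by construction at the first point), with lines joining the genotypes of a tissue and 1 array per point. Nlrc5 is the one gene whose G181R ileum array is above both jejunum arrays, while Tap1, Psmb9 and Psmb8 are higher in G181R than in wild-type ileum and below both jejunum arrays.

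Nlrc5 was highest in G181R ileum. The signal of its brighter probe was 162.1, 109.5, 107.5 and 494.5, so the G181R ileum array stood above the other 3, of which wild-type jejunum was the highest. The genotype difference was 2.28 in ileum (4.85-fold) and -0.60 in jejunum (1.51-fold lower). In ileum it ranked 39 of 21608 measured genes counted from the highest. The second probe was dim, at 3.7, 3.6, 4.9 and 8.3, and well above background on the G181R ileum array alone, which puts that array at least 1.22-fold above wild-type ileum. With the mean of both probes the genotype difference was 1.56 in ileum and -0.34 in jejunum. With another background correction (normexp) it was 1.83 in ileum and -0.43 in jejunum.

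The transporter genes differed unequally between genotypes in ileum. Tap1, which encodes one of the 2 transporter chains, gave 1866.1, 1737.3, 732.0 and 1589.8: wild-type ileum was the low array, and the G181R ileum array was close to both jejunum arrays. Its genotype difference was -0.14 in jejunum and 1.20 in ileum (2.29-fold), and its second probe gave -0.17 and 1.09. Tap2, the partner chain, gave 4172.5, 3887.5, 1941.5 and 2048.4, so both ileum arrays were low. Its genotype difference was -0.14 in jejunum and 0.16 in ileum, and its other probe was not well above background on any array. Tapbp, which encodes tapasin, gave 8609.5, 8410.9, 6475.3 and 5552.6, with differences of -0.07 in jejunum and -0.14 in ileum. Its second probe gave -0.13 and -0.35, so both probes put G181R ileum lowest of the 4 arrays.

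The inducible proteasome subunits replace the constitutive catalytic ones in the immunoproteasome, which favours peptides that fit class I molecules. Psmb8 gave 3111.1, 3044.8, 1231.0 and 2091.8, a genotype difference of -0.07 in jejunum and 0.84 in ileum (1.79-fold). Psmb9 gave 3237.2, 3133.5, 1503.8 and 2612.1, with differences of -0.08 and 0.87 (1.83-fold). In both genes the 2 jejunum arrays were nearly equal, wild-type ileum was lowest and G181R ileum lay between. The second Psmb9 probe was close to background and well above it only in G181R jejunum, so it bears little on this. Averaging it in gave an ileal difference of 0.34. Psmb10 gave 24749.4, 27539.3, 18998.5 and 22391.9, with differences of 0.12 and 0.32, and was the one gene of the 10 that was higher in G181R than in wild-type jejunum.

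Beside their constitutive partners, Psmb8 and Psmb9 stood apart in ileum and Psmb10 did not. Psmb8 differed by 0.84 in ileum where Psmb5, the subunit it replaces, differed by 0.25. Psmb9 differed by 0.87 where Psmb6 differed by 0.28. Psmb10 and Psmb7 differed alike, by 0.32 and 0.30. Between the tissues of wild-type mice the inducible subunits were lower in ileum by -1.58, -1.35 and -0.63, while Psmb5, Psmb6 and Psmb7 differed by -0.06, -0.33 and 0.06.

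**Figure D2:**
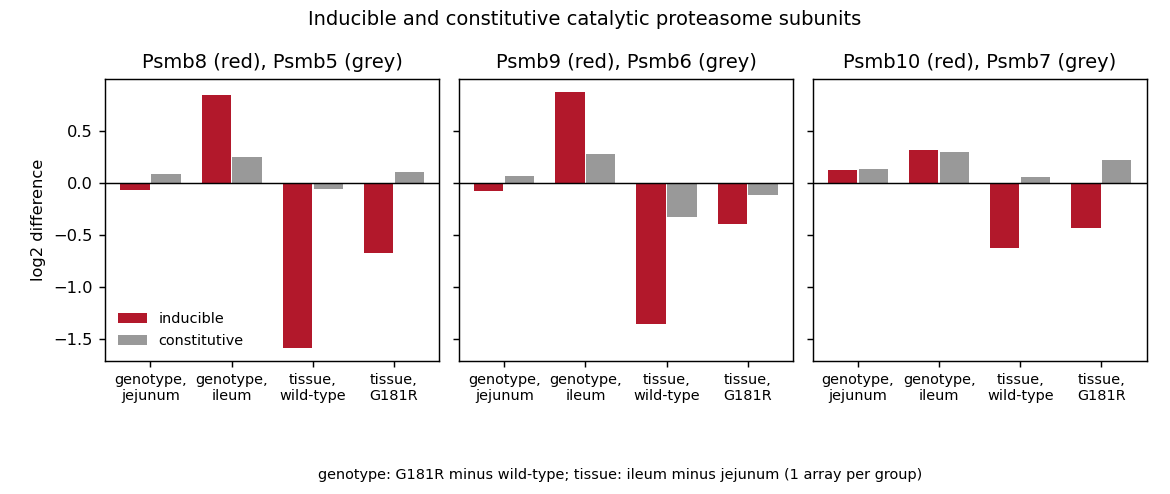
Log2 difference (y axis) of each inducible catalytic subunit (red) and the constitutive subunit it replaces (grey) in the 2 genotype comparisons and the 2 tissue comparisons, each bar being 1 array minus another. Psmb8 and Psmb9 reach 0.84 and 0.87 in the ileal genotype comparison where Psmb5 and Psmb6 reach 0.25 and 0.28, and all 3 inducible subunits are below 0 in both tissue comparisons.

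Of the genes for the class I molecule itself, B2m and H2-K1 were nearly alike between genotypes in ileum, and H2-D1 was somewhat higher in G181R mice. B2m gave 48920.9, 42776.1, 32354.7 and 29137.3, with the jejunum arrays above the ileum arrays and G181R a little below wild-type in each tissue. Its genotype difference was -0.23 in jejunum and -0.07 in ileum, and its second probe gave -0.27 and -0.09. H2-K1 gave 68580.8, 61908.9, 43866.5 and 40423.0, a difference of -0.18 in jejunum and -0.04 in ileum, the latter no larger than the SD between spots. Its second probe gave -0.22 and -0.05. The ileal sign of both genes turned with the scaling of the arrays, between -0.15 and 0.02 for B2m and between -0.14 and 0.06 for H2-K1. H2-D1 gave 18638.8, 18428.1, 12240.5 and 14441.4, with differences of -0.05 in jejunum and 0.32 in ileum. Heavy chain genes are near copies of each other, and a probe of one may also bind transcripts of another, so these values may mix genes.

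At the 2-fold threshold, 2 of the 10 genes were higher in G181R ileum, Nlrc5 and Tap1, where 2% of all measured genes were, and 0 were lower, where 3.21% were. In jejunum 0 of 10 passed the threshold in either direction, where 0.763% of all genes were higher and 0.749% lower. By direction alone, 7 of 10 were higher in G181R ileum (53.2% of all genes) and 9 of 10 lower in G181R jejunum (51.7% of all genes). Several of the jejunal differences were close to the spread between spots.

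**Figure D3:**
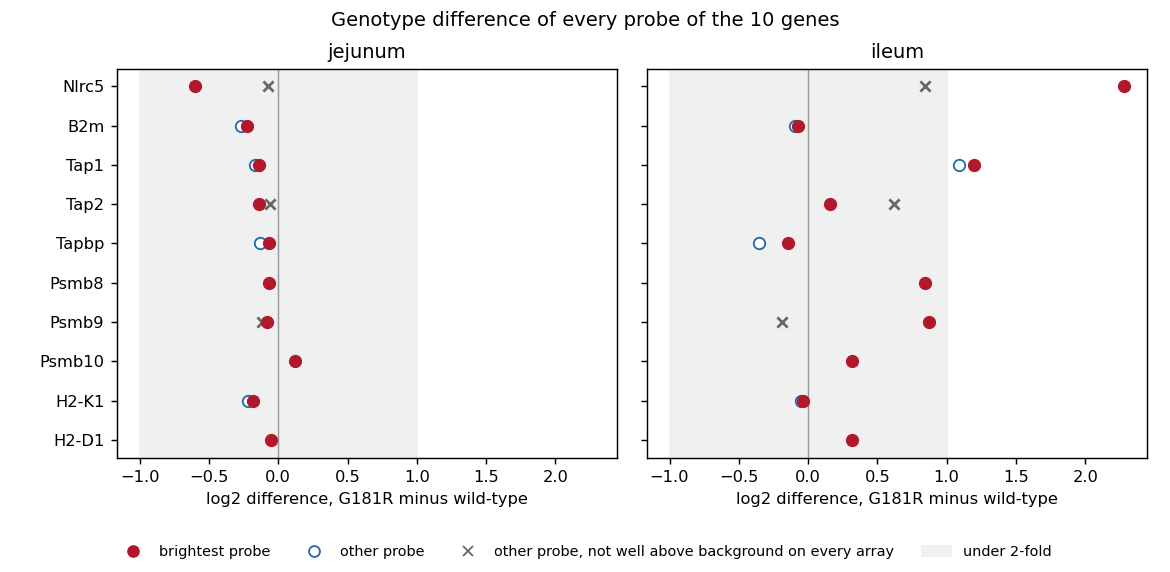
Log2 genotype difference (x axis, G181R minus wild-type) of all 17 probes of the 10 genes in jejunum and ileum, with the brightest probe filled, other probes open, and crosses for other probes that were not well above background on every array. Both Tap1 probes lie beyond 1 in ileum (1.20 and 1.09), and the brightest probe of every gene lies between -0.60 and 0.12 in jejunum.

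Between tissues of wild-type mice, every one of the 10 genes was lower in ileum, with a median of -0.87 (1.83-fold lower) where that of all 20879 measured genes was -0.05. The difference was -1.59 for Tap1, -1.58 for Psmb8, -1.35 for Psmb9 and -1.35 for Tap2. These 4 genes passed the 2-fold threshold, as 9.11% of all genes did in this direction. With arrays scaled on epithelial markers, 8 of the 10 did, but so did 3142 of the 20879 genes, where 1902 did in the first scaling. The other 6 lay between -0.63 (Psmb10) and -0.89 (H2-K1). The 4 genes past the threshold in the first scaling lie side by side: on chromosome 17 their probes span 34.0 kb (mm9), from 34319174 to 34353175, in the order Psmb9, Tap1, Psmb8, Tap2. Of the 10 genes, 7 are on chromosome 17, Nlrc5 and Psmb10 are on chromosome 8 and B2m is on chromosome 2.

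In G181R mice the ileum was lower in 9 of 10 genes, with a median of -0.58 against -0.03 for all 21605 genes, where 52% were lower. Nlrc5 was the exception, at 2.04 higher in ileum, past the 2-fold threshold as 7.3% of all genes were. Tap2 passed it in the other direction at -1.06, as 8.73% of all genes did, and the threshold was missed when arrays were centred on their median or quantile normalised. The difference was -0.26 for Tap1, -0.40 for Psmb9, -0.67 for Psmb8 and -0.43 for Psmb10. It was -0.69 for B2m, -0.75 for H2-K1, -0.73 for Tapbp and -0.48 for H2-D1. All but Nlrc5 thus had both ileum arrays below both jejunum arrays, an order that 38.1% of the 20543 genes measured on all arrays also had. Wild-type ileum was the lowest of the 4 arrays for 7 of the 10, where it was for 25.5% of all genes. G181R ileum was the highest for Nlrc5 alone, where it was for 30.6% of all genes.

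The genotype difference in ileum exceeded that in jejunum for 9 of 10 genes, a median of 0.33 where all genes had 0.01 and 51.8% were above 0. This difference of differences was 2.88 for Nlrc5, which ranked 7 of 20543 from the highest, and 1.33 for Tap1. Both passed 2-fold, as 1.75% of all genes did. The value and rank of Nlrc5 rest on its brighter probe: the mean of both probes gave 1.90, and normexp gave 2.27. The difference of differences was 0.95 for Psmb9, 0.91 for Psmb8, 0.37 for H2-D1, 0.29 for Tap2, 0.19 for Psmb10, 0.15 for B2m and 0.14 for H2-K1. Tapbp had -0.08, a sign that turned with the scaling, between -0.15 and 0.03. The tissue comparisons and the genotype comparisons use the same 4 arrays, so these are the same values seen another way.

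The other class I heavy chains on the array were mostly lower in ileum, as H2-K1 was, and had no common direction between genotypes in ileum. Of 18 measured, 9 were higher and 9 lower in G181R ileum, where 53.2% of all genes were higher, with a median of 0.00. In G181R jejunum 17 of 18 were lower, where 51.7% of all genes were, with a median of -0.15. Of the 18, 0 passed 2-fold there, where 0.763% of all genes were higher and 0.749% lower. In ileum the largest genotype differences were 0.68 for H2-M3, -0.59 for Fcgrt, the neonatal Fc receptor, and -0.52 for H2-T3. H2-T3 is the thymus leukaemia antigen, which intestinal epithelium expresses. H2-M3, which presents formylated bacterial peptides, gave 82.6, 80.5, 120.0 and 181.8. In wild-type mice 16 of 18 were lower in ileum (53.4% of all genes), 8 of them at least 2-fold (9.11% of all genes), with a median of -0.93. H2-Q1 gave 14848.9, 14019.6, 3786.5 and 3332.0, a tissue difference of -2.21 in both genotypes.

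The partners that fold and load class I molecules differed little between genotypes. Of 13 measured, 11 were higher in G181R ileum, where 53.2% of all genes were, with a median of 0.27, and 0 passed 2-fold, where 2% of all genes did. The lower ones were Sppl3 (-0.28) and Lnpep (-0.04). The largest differences were 0.62 for Sec61a1, the translocon channel, 0.51 for Hspa5, the chaperone BiP, and 0.47 for Uggt1, a glycoprotein folding sensor. Hspa5 and Uggt1 were also higher in G181R jejunum, by 0.40 and 0.22. Most of these proteins serve all secreted and membrane proteins and not class I alone.

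The proteasome as a whole differed little. All 18 constitutive 20S subunits and chaperones were higher in G181R ileum, between 0.06 and 0.65 with a median of 0.26. So were 17 of 18 subunits of the 19S cap, with a median of 0.25, and 53.2% of all genes. The same 2 lists had medians of 0.09 and 0.11 in jejunum, and 0 genes of either list passed 2-fold in either tissue. Of all genes, 2% were at least 2-fold higher and 3.21% lower in G181R ileum, and 0.763% and 0.749% in jejunum. Of the proteasome activators, Psme1, a chain of the PA28 activator that interferon gamma induces, differed by 0.10 in ileum. Psme3 differed by -0.21 and Psme4 by 0.27.

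Genes of the proteins that NLRC5 works with had no common direction, while Ciita, its class II counterpart, was 0.64 higher in G181R ileum. Of 9 such genes, Ciita included, measured in ileum, 3 were higher and 6 lower in G181R mice. Their median was -0.05, and 53.2% of all genes were higher there. Ciita, the class II transactivator, gave 406.1, 405.4, 695.7 and 1030.1, equal in jejunum (-0.04, a sign that turned with the scaling) and 0.64 higher in G181R ileum. Rfx5, a DNA-binding RFX subunit, differed by -0.69 at a signal of 15.4 and 9.0 in ileum and was not well above background in jejunum. Creb1 differed by 0.31.

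Genes of interferon sensing and signalling differed in both directions. Of 21 measured, 12 were higher and 9 lower in G181R ileum, where 53.2% of all genes were higher, with a median of 0.10. Socs1, a brake on interferon signalling, gave 101.2, 109.3, 198.0 and 1295.7, so that G181R ileum alone was high, by 2.79. Socs3, a brake on STAT3 signalling, gave 1781.9, 6283.7, 2760.6 and 12323.8 and was higher in G181R mice of both tissues, by 1.78 and 2.24. Irf1, a direct activator of class I genes, differed by 0.28 in ileum and -0.04 in jejunum, and the receptor chain Ifngr2 by -0.60 and -0.33.

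Interferon gamma itself was barely detected. Its probe gave 1.5, 1.2, 1.4 and 12.3 and was well above background in G181R ileum alone, which puts that array at least 1.81-fold above wild-type ileum. Il18, a cytokine that prompts interferon gamma release, gave 9667.8, 15144.7, 3964.6 and 7551.3, higher in G181R mice by 0.61 in jejunum and 1.01 in ileum. Il15, which sustains natural killer cells, gave 3642.8, 2038.6, 1379.8 and 722.0, lower by -0.87 and -0.86. Ifne, an epithelial type I interferon, was well above background only in wild-type ileum, at 44.6 against 1.4 in G181R ileum, a level at least 6.92-fold lower. Ifnb1 was not well above background on any array.

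**Figure D4:**
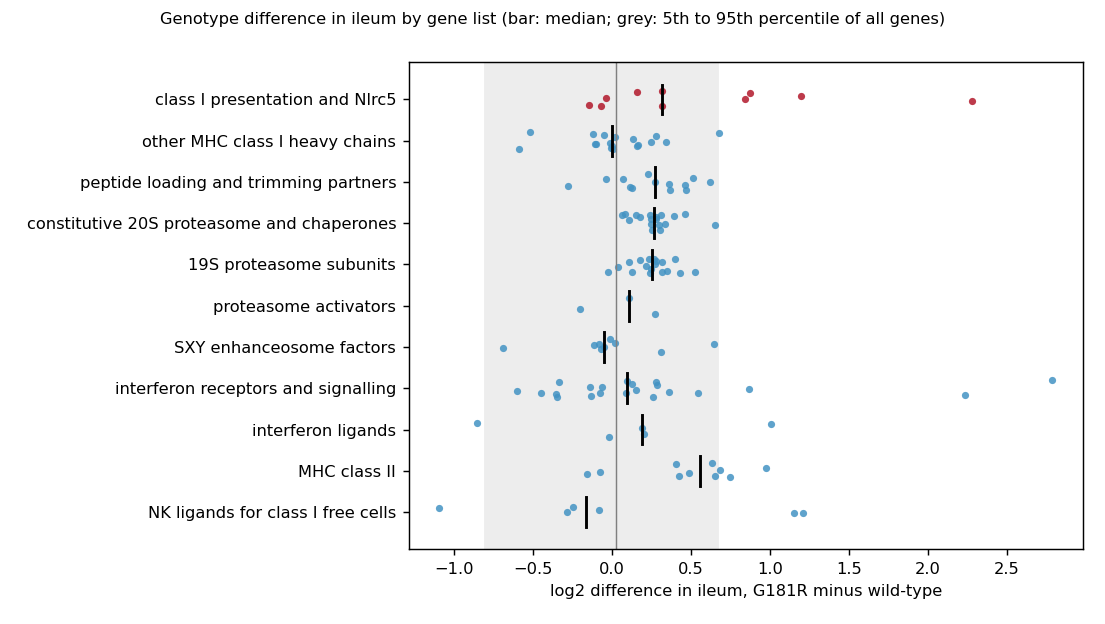
Log2 genotype difference in ileum (x axis, G181R minus wild-type) of the 10 genes (red) and of the measured genes of 10 related lists (blue), with a black bar at each list's median, a grey line at the median of all genes and a grey band from their 5th to their 95th percentile (-0.80 to 0.67). The class I genes spread from -0.14 to 2.28 around a median of 0.32, and all 18 genes of the constitutive 20S list lie to the right of 0.

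MHC class II genes, whose products show peptides to CD4 T cells, differed between tissues in the other direction from class I. In wild-type mice 8 of 10 were higher in ileum, 4 of them at least 2-fold, with a median of 0.73, where 7.42% of all genes were at least 2-fold higher. In G181R mice 8 of 10 were higher in ileum, all 8 at least 2-fold (7.3% of all genes), with a median of 1.54. Between genotypes, 8 of 10 were higher in G181R ileum, where 53.2% of all genes were, with a median of 0.56. Of the 10, 0 passed 2-fold there, where 2% of all genes were higher and 3.21% lower. H2-Oa differed most, by 0.98, followed by H2-DMb1 at 0.74 and Cd74, the invariant chain, at 0.68. H2-Ab1, a classical class II chain, gave 11450.6, 10982.3, 22858.0 and 28678.9. B cells carry class II, and their markers differed in the same directions: in ileum 6 of 6 measured were higher in wild-type mice (median 1.65) and 7 of 7 in G181R mice (median 3.11), and 6 of 7 were higher in G181R than in wild-type ileum (median 0.77). Beside these tissue counts and those of class II, 53.4% of all genes were lower in ileum in wild-type mice and 52% in G181R mice. The part of B cells in the class II values was not tested.

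Among ligands that natural killer and T cells read besides class I, the 2 ligands of PD-1 were lowest in wild-type ileum. Cd274 gave 229.5, 129.9, 94.1 and 205.8, a genotype difference of -0.86 in jejunum and 1.21 in ileum. Pdcd1lg2, a dimmer probe, gave 26.0, 14.5, 11.6 and 24.4, with -0.88 and 1.15. Clec2d, a ligand of an inhibitory natural killer receptor, gave 1670.0, 965.3, 2507.5 and 1113.4 and was lower in G181R mice of both tissues, by -0.82 and -1.09.

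Other cells of the scraped tissue differed between the arrays. In tissue samples of this kind, fewer cells of a type and less RNA per cell cannot be told apart. Of all measured genes, 53.4% were lower in ileum in wild-type mice and 52% in G181R mice. Between genotypes, 51.7% were lower in G181R jejunum and 53.2% higher in G181R ileum. The marker counts below stand beside these shares. Of 10 T cell markers, 9 were lower in ileum in wild-type mice (median -0.59), as the class I genes were, while in G181R mice 5 were higher and 5 lower (median -0.03, a sign that turned with the scaling). In G181R against wild-type, all 10 were lower in jejunum (median -0.31) and 7 were higher in ileum (median 0.20). Their summed level, as multiples of the 75th percentile, was 36.2, 27.6, 12.9 and 10.3. The largest part on every array was Cd4, which gave 4236.5, 3205.2, 1414.9 and 759.6. All 10 were well above background in every group although the mice lack receptor chains.

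Of the markers of natural killer and innate lymphoid cells, 9 of 10 measured were lower in ileum in wild-type mice (median -0.96) and 9 of 11 in G181R mice (median -0.78). Their summed level was 127.9, 100.8, 25.4 and 22.3, most of it from Gzma, a granzyme, and Eomes was not well above background on any array. Between genotypes 10 of 10 were lower in G181R jejunum (median -0.36), and in ileum 4 were higher and 6 lower. The summed level of 6 markers common to leukocytes was 29.4, 27.5, 23.8 and 29.4, and all 6 were higher in G181R than in wild-type ileum (median 0.34) and lower in jejunum (median -0.13).

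Of 11 macrophage and dendritic cell markers measured in ileum, 10 were higher in G181R mice (median 0.28), and Ly6c2, a monocyte marker, gave 577.7, 502.3, 958.1 and 4339.6. Between tissues 9 of 11 were lower in ileum in wild-type mice (median -0.78) and 8 of 11 in G181R mice (median -0.37). Their summed level went the other way, at 460, 526.3, 610.5 and 652.1, with Lyz2, a lysozyme, higher in ileum by 1.30 and 0.95. Xcr1 was not well above background on any array. Of the 8 neutrophil markers, S100a8 and S100a9 were well above background in G181R ileum alone, at least 3.58-fold and 14.2-fold above wild-type ileum. The 4 neutrophil markers measured on both ileum arrays did not share this: 1 was higher and 3 lower in G181R mice. Their median was -0.045, a sign that turned with the scaling. B cell markers summed to 1.95, 1.08, 6.42 and 10.9 and Blk was not well above background on any array. Smooth muscle markers summed to 47.8, 52.3, 95.8 and 41.5, lower in G181R ileum for all 8 genes (median -2.44). The part of any of these cells in the class I values was not tested.

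Genes were also ranked by how closely their profile over the 4 arrays, centred on its own mean, followed that of Nlrc5, as the root mean square distance in log2 among 13866 genes well above background on all arrays. The nearest were Ccl8, a chemokine (distance 0.14), Scgb3a1, a secretoglobin (0.16), Rgs4, a regulator of G protein signalling (0.20), Ifi209, an interferon-activated gene of the PYHIN family (0.31) and Phf11b (0.32). The closest of the other 9 class I genes was Tap1, at 0.87. The nearest to the median profile of those 9 were Golgb1, a Golgi membrane protein (0.04), Mmp28, a matrix metalloproteinase (0.04), Slc16a3, a lactate transporter (0.04), Mr1, a class I-like molecule that presents vitamin B metabolites (0.05), and Itgb2, a leukocyte integrin chain (0.05). With 4 arrays many genes share a profile, and these names describe likeness over these 4 points only.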

How the data were processed

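RNA from 4 pools was measured on 1 array each. Per the file headers, the authors' scanner software, Agilent Feature Extraction 11.5.1.1, gave processed intensity values, background-subtracted and detrended one array at a time and not scaled between them. Other deposited values are flags of 0 or 1 per spot (well above background, saturated, outlier). The deposited table holds log2 values that equal the log2 processed intensity minus 1 constant per array, within 0.01, for 95.8% of the 56605 probes and for 17 of 17 probes of the 10 genes. Its column medians are -3.09, -3.09, -3.09 and -3.14, its scaling is not given in the sources used here, and it served as an alternative only.

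Here log2 intensities were averaged over spots (outlier spots left out) and each array's 75th percentile was subtracted, in Python 3.11.15 with pandas 2.3.3. Normexp and quantile alternatives used limma 3.58.1 in R 4.3.3. A gene counted as measured when its brightest probe passed the background flag on both arrays, and a fold is "at least" where 1 array alone was. RefSeq accessions named 32994 probes and 23611 kept the design's name. Probe positions are mm9 and promoters GRCm38.p6. Exon or UTR positions of probes were not used here. Steps were tested on simulated data.

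The 10 genes, the 10 pathway and 13 marker lists and the thresholds were chosen with earlier results of these data known. All 10 genes are named. Of each pathway list, genes past 2-fold or up to 3 with the largest ileal difference are named, and of marker lists those not well above background and up to 2 others. Some genes the rule allows are not reported here. Genes named outside this rule (H2-Q1, H2-Ab1, Irf1, Ifngr2, Ifnb1, Ifne, Ifng, Sppl3, Lnpep, Cd4, Gzma, Lyz2, Psmb5, Psmb6, Psmb7) were chosen after their values were seen or to complete a pair. The 5 nearest genes of each profile are those of smallest distance.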

Additional observations from a re-analysis of the deposited data

Results flagged for a closer look

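For 6 genes the genotype difference had opposite signs in the 2 tissues, lower in G181R jejunum and higher in G181R ileum. With 1 array per group this difference was not tested. The ileal difference minus the jejunal one was 2.88 for Nlrc5, 1.33 for Tap1, 0.95 for Psmb9, 0.91 for Psmb8, 0.37 for H2-D1 and 0.29 for Tap2. The jejunal side was small in 5 of them, between -0.05 (H2-D1) and -0.14 (Tap1), and reached -0.60 for Nlrc5 alone (-0.34 with the mean of both its probes).

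Nlrc5 also had opposite tissue differences in the 2 genotypes, lower in ileum by -0.84 in wild-type mice and higher by 2.04 in G181R mice. Their difference is 2.88, from the same 4 arrays, and it was not tested either.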

How the results depend on the processing

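With 1 array per group no replicate could be left out. No paired analysis was possible because each group has 1 sample and no test was run. Of 145 recomputed medians and counts over the 10 genes, 122 stayed within the spread between spots (counts within 1.5 times) and 23 moved. Reversal was looked for only in values past 2-fold, which no median over the 10 genes was, so it could not have been found here. Leaving out the filter on dim probes could change nothing, because all 10 genes were measured in every comparison. Under normexp the wild-type tissue median was -0.82 and the difference of differences 0.27. With the array median the ileal genotype median was 0.36, the G181R tissue median -0.52 and its count of genes 2-fold lower 0. With the 75th percentile of probes well above background on all arrays the wild-type tissue median was -0.81. With quantile normalisation the ileal median was 0.25, the tissue medians -0.77 (wild-type) and -0.47 (G181R), and the G181R count of lower genes 0. The mean of all probes gave -0.93 for the wild-type tissue median and 0.40 for the difference of differences.

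At a 1.5-fold threshold 1 gene was lower in G181R jejunum, 4 were higher in G181R ileum, 10 and 5 were lower in wild-type and G181R ileum than in jejunum, and 4 were higher in the difference of differences. Of all genes, 872 of 21354 were lower in G181R jejunum and 1468 of 21608 higher in G181R ileum at that threshold. Between tissues 4176 of 20879 (wild-type) and 4029 of 21605 (G181R) were lower in ileum, and 1135 of 20543 were higher in the difference of differences. Scaling on 7 epithelial markers was added after seeing the data. It gave medians of 0.41 (ileal genotype), -1.14 and -0.74 (wild-type and G181R tissue) and 0.43 (difference of differences). With it 8 of the 10 genes were 2-fold lower in wild-type ileum, as were 3142 of all 20879 genes. In the difference of differences 4 were 2-fold higher, as were 468 of all 20543 genes. This scaling also shifted the median of all genes to 0.12 (ileal genotype), -0.32 and -0.19 (wild-type and G181R tissue) and 0.12 (difference of differences). It moved the share of higher genes among all genes past 2-fold from 38.4% to 51.0% (ileal genotype), 44.9% to 23.6% and 45.5% to 31.1% (tissue), and 46.0% to 58.1% (difference of differences). Normexp moved that share from 50.5% to 64.5% in jejunum, with 60 genes higher and 33 lower where 163 and 160 were counted, and gave 180 and 216 in ileum where 432 and 693 were counted. Of 50 differences of single genes, the sign turned for 3: B2m and H2-K1 in ileum and Tapbp in the difference of differences. Medians of the proteasome and class II lists kept their sign in the ileal genotype comparison under every scaling, and that of the other class I heavy chains did not (-0.04 to 0.10). Dim probes (Pdcd1lg2, Rfx5, the second probes of Nlrc5, Tap2 and Psmb9) are limited by their signal over background.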
